A study of Mus musculus with 6 samples.

Results

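The enzymes that chemically alter and conjugate foreign compounds were read in both compartments of the embryonic mouse bladder. They were chosen by symbol: cytochrome P450 genes of families Cyp1 to Cyp4, glutathione S-transferase genes (Gst), UDP-glucuronosyltransferase genes (Ugt1 and Ugt2) and sulfotransferase genes (Sult). This gave 98 of the 18193 genes measured, namely 56 Cyp, 21 Gst, 8 Ugt and 13 Sult genes. All 8 Ugt genes were of the Ugt2 group, since 0 probe sets with a single symbol belonged to Ugt1.

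The embryos were wild-type FVB/N mice of embryonic day 13, which is Theiler stage 21. Their bladders were soaked in EDTA, which loosens epithelium from the tissue around it, before a needle parted mesenchyme and urothelium. RNA was amplified in 2 rounds and hybridised to Affymetrix MOE430 arrays, whose probe sets each report 1 signal on a linear scale. There were 3 mesenchyme arrays, labelled 1, 2 and 4, and 3 urothelium arrays, labelled 5, 7 and 8, all untreated apart from the EDTA and none from a pooled sample. Whether separate embryos or litters lie behind the arrays is not stated, so every p-value here reflects the scatter among these samples only, part of which may be technical.

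Cytochrome P450 enzymes are haem proteins that insert oxygen into fatty acids, steroids, retinoids and foreign compounds, and they draw electrons from a reductase. Glutathione transferases, UDP-glucuronosyltransferases and sulfotransferases then attach glutathione, glucuronic acid or sulfate, which makes the product more soluble and ready for export. The liver is the organ best known for these families, while epithelia that face the outside or the urine carry sets of their own.

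Of the 98 genes, 14 (14.3%) passed the test at an adjusted p under 0.05, against 14.7% of all genes tested. Higher signals in urothelium were found for 8 of them, against 5.8% of all genes, and in mesenchyme for 6, against 8.91% of all genes. The share is thus near the background. The median log2 difference, urothelium minus mesenchyme on the log2(signal + 45) scale, was -0.056 over the 98 genes and -0.11 over all genes. This scale understates the change of dim genes. The arrays of the compartments did not overlap for 20 of the 98 genes, against 30.1% of all genes: 10 were higher in urothelium, against 12% of all genes, and 10 in mesenchyme, against 18.1%. By family, 6 of 21 Gst genes passed (28.6%), 2 of 13 Sult genes (15.4%), 1 of 8 Ugt genes (12.5%) and 5 of 56 Cyp genes (8.93%). Whether the families differ in this was not tested. Of the Gst genes 13 were brighter than the median gene, a range where 20.5% of all genes passed, and 51 of the Cyp genes were not, a range where 8.92% did. With each array centred on its median log2 value, which moved the median of all genes to 0.28, the split was 11 in urothelium and 5 in mesenchyme. That raised the urothelial share of calls from 57.1% to 68.8%, and over all genes from 39.4% to 58.9%. Without mesenchyme 2, mesenchyme 4 or urothelium 7 the count in urothelium was 5, and without urothelium 8 it was 4. The count in mesenchyme was 4 without urothelium 5 or urothelium 7.

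Most of these genes gave dim signals. The mean signal of 80 of the 98 lay at or below that of the median gene, and their median percentile was 20.8. A probe set's signal depends on its sequence as well as on the RNA, so this ranks signals and not amounts of RNA. Among the 80 dim genes 5 passed (6.25%), against 8.92% of all genes in that range. Among the 18 brighter ones 9 passed, against 20.5% of all genes above the median. For the 84 genes that did not pass, the median half-width of the 95% interval of the log2 difference was 0.86, so that differences of such a size could not be resolved with 3 arrays a group.

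**Figure D1:**
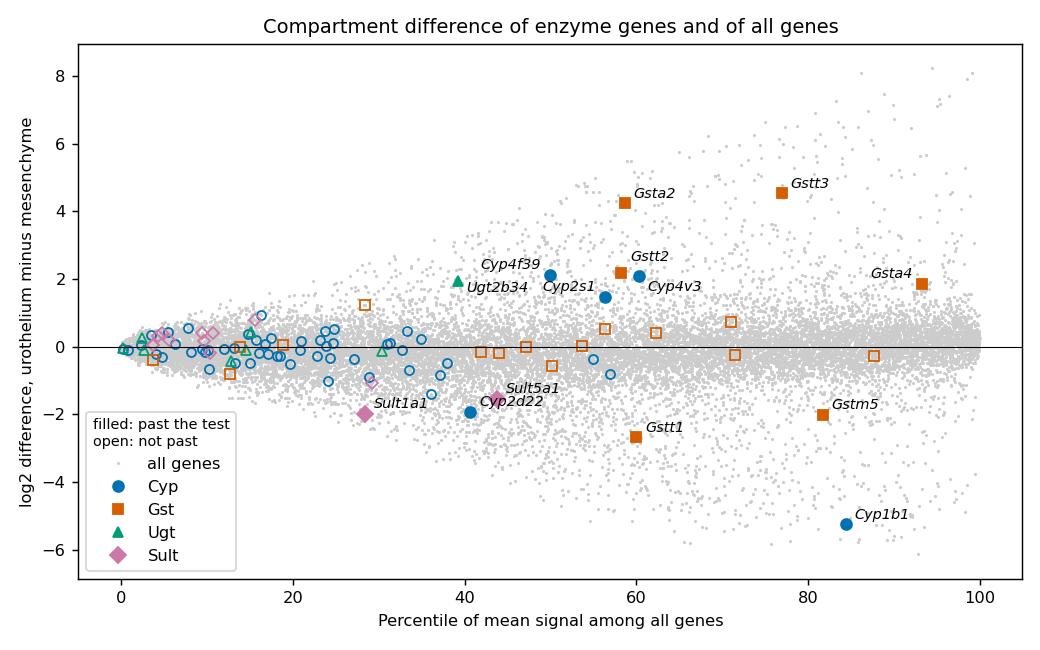
The log2 difference between urothelium and mesenchyme (vertical axis) is plotted against the percentile of the mean signal among all 18193 genes (horizontal axis, percent), with the 98 enzyme genes in colour by family, filled where they passed, and all genes in grey. Most Cyp, Ugt and Sult genes sit in the dim left part near 0, while Cyp1b1 (-5.25), Gstt3 (4.54) and Gsta2 (4.24) lie far from it.

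Among the P450 genes, Cyp1b1 differed most and was higher in mesenchyme. It encodes an enzyme that acts on oestrogens, retinoids and polycyclic hydrocarbons and is found mainly outside the liver. Mesenchyme 1, 2 and 4 gave signals of 11252, 14389.5 and 11365, and urothelium 5, 7 and 8 gave 358, 332 and 179.7. Each mesenchyme array was far above each urothelium array. The mean was 12336 ± 1780 (SD, n = 3) in mesenchyme and 289.8 ± 96.2 in urothelium, and the log2 difference was -5.25 ± 0.32 (SE; limma adjusted p = 3.25e-06). Among 2 further Cyp1b1 probe sets, 1 passed in the same direction (-2.90) and 1 did not (-1.37, adjusted p = 0.104 over all probe sets), and the mean of the 3 probe sets differed by -3.17. The other Cyp1 genes, Cyp1a1 and Cyp1a2, which encode the classic hepatic targets of the aryl hydrocarbon receptor, were dim in both compartments, with log2 differences of -0.20 (95% interval -0.90 to 0.51) and -0.28 (-1.27 to 0.72).

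The other P450 gene higher in mesenchyme was Cyp2d22, a member of the Cyp2d subfamily, whose human counterpart metabolises many drugs. It gave 458, 446 and 612 on the mesenchyme arrays and 135, 68.96 and 102 on the urothelium arrays, which did not overlap. The log2 difference was -1.92 ± 0.41 (adjusted p = 0.00802), and its second probe set also passed with -1.92. The call was lost without urothelium 7 (-1.75).

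Cyp2s1, Cyp4f39 and Cyp4v3 were higher in urothelium. Cyp2s1 encodes a P450 found in epithelia such as skin and airway. Its signals were 475, 434 and 639.9 in mesenchyme and 1284, 1416 and 1857 in urothelium, a log2 difference of 1.48 ± 0.35 (adjusted p = 0.0148). Cyp4f39 is the mouse counterpart of the human gene for the fatty acid hydroxylase that serves the lipid barrier of the skin. It had 376, 204 and 88.3 in mesenchyme and 744, 1108 and 1251 in urothelium, a difference of 2.13 ± 0.49 (adjusted p = 0.0123). Cyp4v3, the counterpart of a human fatty acid hydroxylase gene whose loss causes a crystalline retinopathy, had 705, 299.8 and 495 in mesenchyme and 2259, 2306 and 1900.1 in urothelium. It differed by 2.08 ± 0.37 (adjusted p = 0.00287). The groups overlapped for none of these 3 genes. The second Cyp4v3 probe set had a difference of 1.80 and an adjusted p of 0.0770 over all probe sets.

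Leaving out single arrays bore on 2 of these urothelial genes. The call of Cyp2s1 was lost without mesenchyme 2 (1.37), urothelium 7 (1.52) or urothelium 8 (1.33), and that of Cyp4f39 without mesenchyme 4 (1.71), urothelium 7 (2.07) or urothelium 8 (1.99). The number of Cyp genes higher in urothelium was therefore 1 without urothelium 7 or urothelium 8, and the number higher in mesenchyme was 1 without urothelium 7.

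The other 51 Cyp genes did not pass, with log2 differences between -1.41 and 0.94. None of the 5 Cyp3a genes, the subfamily that oxidises the widest range of drugs in the adult liver, passed or had an unadjusted p under 0.05, and their values ran from -0.69 to 0.54. Cyp3a44, at 0.54 the highest of them, passed with array weights. The brightest probe sets among the 51 were those of Cyp2c38, Cyp2j6 and Cyp4f16. Cyp2j6, a fatty acid epoxygenase gene, had 1026 ± 251 in mesenchyme and 795 ± 256 in urothelium, a difference of -0.37 (95% interval -1.22 to 0.47). Cyp4f16 had 1343 ± 380 and 774 ± 340.4 (-0.80, interval -1.71 to 0.10), and passed with array weights (-0.99). Over all 18193 genes array weights gave 2055 calls in urothelium and 2996 in mesenchyme, against 1055 and 1621 without them. Cyp2c38 had 324 ± 308 and 170.01 ± 16.9 (-0.47, interval -1.68 to 0.75), with 679 on mesenchyme 1 and 129 to 189 on the other arrays. Cyp2j9, Cyp4a14 and Cyp4f13 had an unadjusted p under 0.05 but an adjusted p of 0.0924 to 0.172. Cyp2j9 (-1.41) passed without urothelium 8 (-2.11), where its signal was 297 against 59.3 and 16.65 on the other urothelium arrays. Cyp2j9 (-2.19) and Cyp4a14 (1.05) also passed with array weights, and Cyp4a14 with centred arrays (1.32) and after quantile normalization (1.12). Cyp2c68, whose difference without weights was 0.54, passed with array weights too.

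**Figure D2:**
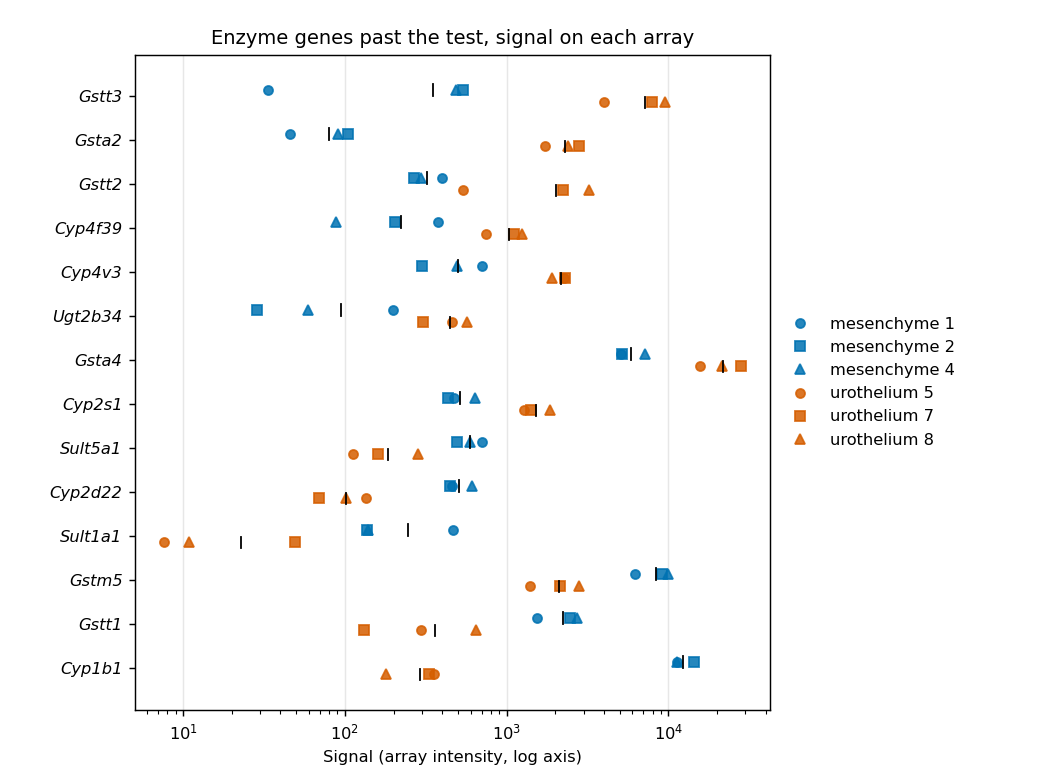
Signal on each array (horizontal log axis, array intensity) of the 14 enzyme genes that passed, 1 row a gene from the largest difference towards urothelium at the top to that towards mesenchyme at the bottom; blue symbols are mesenchyme, orange symbols urothelium, shapes tell the arrays apart, and black ticks are the means of 3 arrays. The blue and orange symbols overlap in no row; the widest separations are those of Cyp1b1 (12336 against 289.8) and Gsta2 (80.3 against 2307).

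Among the glutathione transferases, all 3 measured alpha class genes had higher signals in urothelium on every array, and 2 of them passed. Gsta2, a cytosolic transferase that also reduces organic peroxides, had 45.5, 105 and 90.85 in mesenchyme and 1739.9, 2798 and 2383 in urothelium. Its means were 80.3 ± 30.9 and 2307 ± 533, with a log2 difference of 4.24 ± 0.40 (adjusted p = 4.08e-05). Gsta4, whose product removes hydroxynonenal, an aldehyde that arises when membrane lipids are oxidised, had 5112, 5189 and 7212 in mesenchyme and 15691, 28053 and 21353 in urothelium, a difference of 1.86 ± 0.29 (adjusted p = 0.00110). Every urothelium array was above every mesenchyme array for both genes. Gsta3 had 11.2, 69.0 and 125 against 157, 187 and 255. Its difference was 1.23 ± 0.46, with an adjusted p of 0.115, and was 0.79 without mesenchyme 1. With arrays centred on their medians it was 1.61 and passed (adjusted p = 0.0274).

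In the mu class, the largest with 7 measured genes, 1 gene passed, and it was higher in mesenchyme. Gstm5 had 6184, 9186 and 9916 on the mesenchyme arrays and 1388.5, 2129 and 2789.9 on the urothelium arrays, a 4.01-fold ratio of means. The log2 difference was -2.01 ± 0.33 (adjusted p = 0.00151), with no overlap. The other 6 mu genes had differences between -0.57 and 0.021, and their groups overlapped. Genes of this class are similar in sequence, and the probe sets of Gstm1 and Gstm3 used here bear suffixes that mark probes shared between transcripts.

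The theta class held differences in both directions within a cluster of genes. These enzymes act on small halogenated compounds and on sulfate esters. In the RefSeq gene order on mouse chromosome 10 the protein-coding genes follow each other as Ddt, Gstt3, Gstt1, Gstt4, Gstt2 and Mif. Gstt3 had 33.55, 537 and 486 in mesenchyme and 3983, 7933 and 9488 in urothelium, a log2 difference of 4.54 ± 0.69 (adjusted p = 0.000945). Mesenchyme 1 was the lowest of the arrays, and without it the difference was 3.60. Gstt1, the next gene, went the other way. It had 1549, 2465 and 2721 in mesenchyme and 297, 132 and 649.95 in urothelium, a difference of -2.68 ± 0.50 (adjusted p = 0.00373). Gstt2 had 399, 268 and 298 in mesenchyme and 541, 2227 and 3253 in urothelium, a difference of 2.18 ± 0.58 (adjusted p = 0.0279). Urothelium 5 was its lowest urothelium array, yet above every mesenchyme array. The call of Gstt2 was lost without mesenchyme 2 (2.07), mesenchyme 4 (2.13), urothelium 7 (1.94) or urothelium 8 (1.67). Gstt4, which lies between Gstt1 and Gstt2, was dim, with 79.5 ± 64.8 and 73.2 ± 9.80 and a difference of 0.066 (95% interval -0.88 to 1.01).

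The remaining Gst genes did not pass. Gstp1, the pi class gene that is widespread in epithelia and in many tumours, had 8851 ± 2427 in mesenchyme and 7354 ± 1919 in urothelium, a difference of -0.27 (95% interval -0.94 to 0.40). Gstz1, which also works in tyrosine breakdown as maleylacetoacetate isomerase, had 2903 ± 580.1 and 2526 ± 955 (-0.25, interval -1.01 to 0.50). Both signs turned with arrays centred on their medians, to 0.12 and 0.13, and that of Gstz1 without urothelium 5 (0.061). Gsto1, an omega class gene, had 2002 ± 776 and 3260.5 ± 765 (0.74, interval -0.028 to 1.51) on a probe set whose suffix marks shared probes. It was 0.24 on its probe set without that suffix and 0.45 without mesenchyme 1, and passed with centred arrays (1.12). Gsto2 differed by -0.81 with an adjusted p of 0.154 and passed without mesenchyme 1 (-1.06) and with array weights (-0.87). Gstcd, which meets the symbol rule but encodes a protein with only the C-terminal domain of a transferase, differed by 0.51.

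**Figure D3:**
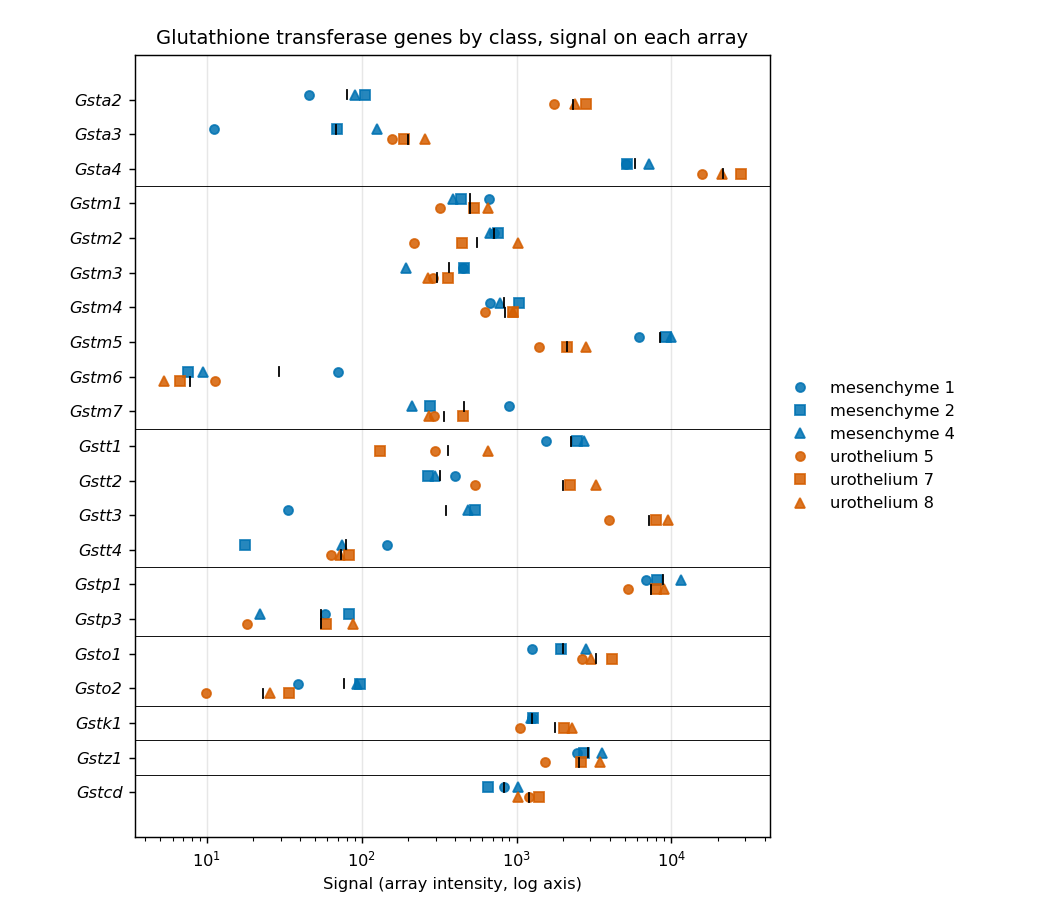
Signal on each array (horizontal log axis, array intensity) of the 21 Gst genes, grouped by class from alpha at the top through mu, theta, pi, omega, kappa and zeta to Gstcd; blue is mesenchyme, orange is urothelium, shapes tell the arrays apart, and black ticks are means of 3 arrays. The alpha rows have orange to the right of blue, the mu rows overlap except for Gstm5 (8429 against 2103), and Gstt1 (2245 against 359.8) runs opposite to Gstt3 (352 against 7135), the gene next to it, and to Gstt2 (322 against 2007).

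The promoters of the genes on which these results turn were taken from RefSeq (GRCm38.p6). They were searched on both strands for TNGCGTG, the core that the aryl hydrocarbon receptor binds, and for TGACNNNGC, the core of the antioxidant response element, which is bound by Nrf2, the product of Nfe2l2. Matches of the motifs can overlap, but neither motif contains the other. The 250 bases before the start site are printed 5′ to 3′ on the gene's strand, with motif matches in capitals. Cyp1b1 is shown as the gene with the largest difference towards mesenchyme and Gsta2 and Gstm5 as transferases of opposite direction. Gstt1 and Gstt3 are shown as neighbours of opposite direction, Gstt3 from the first listed of its 2 start sites.
Cyp1b1 (chr17:79715062-79715311, minus strand): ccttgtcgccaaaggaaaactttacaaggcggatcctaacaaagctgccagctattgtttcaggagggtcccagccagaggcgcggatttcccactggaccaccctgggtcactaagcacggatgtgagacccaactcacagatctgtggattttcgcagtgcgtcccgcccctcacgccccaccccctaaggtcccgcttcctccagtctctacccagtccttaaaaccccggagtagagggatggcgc
Gsta2 (chr9:78347146-78347395, minus strand): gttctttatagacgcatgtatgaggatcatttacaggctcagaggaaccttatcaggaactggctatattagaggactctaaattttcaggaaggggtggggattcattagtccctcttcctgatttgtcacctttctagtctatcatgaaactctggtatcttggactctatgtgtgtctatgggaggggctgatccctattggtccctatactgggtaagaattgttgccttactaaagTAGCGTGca
Gstm5 (chr3:107895604-107895853, plus strand): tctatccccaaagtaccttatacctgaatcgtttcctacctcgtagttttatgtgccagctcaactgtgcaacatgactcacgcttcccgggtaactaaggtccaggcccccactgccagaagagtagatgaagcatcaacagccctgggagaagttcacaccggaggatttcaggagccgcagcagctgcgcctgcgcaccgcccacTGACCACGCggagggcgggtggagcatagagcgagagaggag
Gstt1 (chr10:75797732-75797981, minus strand): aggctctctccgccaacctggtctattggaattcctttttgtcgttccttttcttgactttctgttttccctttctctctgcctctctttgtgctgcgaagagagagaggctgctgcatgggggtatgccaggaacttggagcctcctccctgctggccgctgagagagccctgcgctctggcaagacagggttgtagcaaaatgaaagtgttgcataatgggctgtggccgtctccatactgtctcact
Gstt3 (chr10:75781423-75781672, minus strand): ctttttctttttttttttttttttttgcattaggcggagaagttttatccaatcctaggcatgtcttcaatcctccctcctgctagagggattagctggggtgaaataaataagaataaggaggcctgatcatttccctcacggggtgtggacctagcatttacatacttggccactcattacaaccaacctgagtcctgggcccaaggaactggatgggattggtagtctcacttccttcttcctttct

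Gsta2 held TNGCGTG just before its start site and Gstm5 held TGACNNNGC. Cyp1b1, Gstt1 and Gstt3 held neither in this window, which says only that these letters are not there. Of the 98 genes 81 had a promoter entry, and 4 of the 81 (4.94%) held TNGCGTG, against 5.07% of 32851 promoters. TGACNNNGC was held by 8 of 81 (9.88%), against 12.4%. A gene was counted if any of its start sites held the motif, while the 32851 promoters were counted singly. The shares are thus not fully alike. Among the genes that passed, 11 had an entry, of which 1 held TNGCGTG and 2 held TGACNNNGC, the second being Cyp4f39 with its match after the start site. A match is a run of letters and not a binding site.

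For conjugation with glucuronic acid and sulfate, the shares of genes that passed, 12.5% of Ugt and 15.4% of Sult genes, lay near the 14.7% of all genes. All 8 Ugt and 13 Sult genes were at or below the median gene, a range where 8.92% of all genes passed. The shares stand for only 1 Ugt and 2 Sult genes. Of the 8 Ugt2 genes only Ugt2b34 passed, higher in urothelium. Its signals were 197, 28.7 and 59.1 in mesenchyme and 462, 303 and 566 in urothelium, a log2 difference of 1.95 ± 0.51 (adjusted p = 0.0255). Its other probe set passed too, with 2.40. The call of the probe set used was lost without mesenchyme 2 (1.58), mesenchyme 4 (1.83), urothelium 5 (1.91) or urothelium 8 (1.77), which left 0 Ugt genes, and a pseudocount of 179 gave 1.21. The other 7 had differences between -0.41 and 0.42, and the brightest of them were Ugt2b1, Ugt2b35 and Ugt2b36. Ugt2b36 had 159 ± 71.7 and 143 ± 67.6 (-0.12, 95% interval -1.12 to 0.88), Ugt2b1 had 68.1 ± 84.8 and 46.9 ± 31.0 (-0.10, interval -1.18 to 0.99), and Ugt2b35 had 38.9 ± 18.9 and 81.5 ± 71.9 (0.42, interval -0.60 to 1.45). Their signs depended on the setting. Ugt2b genes are similar in sequence, and the Ugt2b34 probe set used here bears a suffix for shared probes.

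Both sulfotransferase genes that passed were higher in mesenchyme. Sult1a1, which encodes the main sulfotransferase of phenols, had 463, 136 and 139.5 on the mesenchyme arrays and 7.62, 49.4 and 10.9 on the urothelium arrays. Mesenchyme 1 was the highest array by a wide margin, and the compartments did not overlap. The log2 difference was -1.98 ± 0.47 (adjusted p = 0.0161), and the call was lost without urothelium 5 (-1.82) or urothelium 8 (-1.87). It was -3.58 with a pseudocount of 1, -0.998 with a pseudocount of 179 and -1.28 with array weights. Sult5a1 had 703, 494 and 594 against 113, 161 and 282, a difference of -1.53 ± 0.43 (adjusted p = 0.0352). Its call was the least stable of the 14: it was lost without mesenchyme 1 (-1.42), mesenchyme 2 (-1.65), mesenchyme 4 (-1.53), urothelium 5 (-1.29) or urothelium 7 (-1.49). It was also lost after quantile normalization (-1.24) and with arrays centred on their medians (-1.15). The number of Sult genes in mesenchyme was 0 without urothelium 5, and 1 without any other single array.

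The other 11 Sult genes did not pass, with values from -1.09 to 0.78. Sult4a1, a form best known from the brain, had 161, 212 and 244 in mesenchyme and 103, 94.9 and 32.3 in urothelium, which did not overlap (-1.09 ± 0.41, adjusted p = 0.116). Sult2b1, which sulfates cholesterol in the epidermis, had 30.9 ± 31.2 and 92.6 ± 66.8 (0.78, 95% interval -0.25 to 1.81). It passed without both mesenchyme 1 and urothelium 5 (1.59). Sult2a8, of a subfamily that acts on steroids and bile acids, had 33.6 ± 39.1 and 51.3 ± 15.0 (0.39, interval -0.43 to 1.22). With array weights Sult4a1 (-1.07), Sult2b1 (1.29) and Sult2a8 (0.83) passed.

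Some dim genes owed their mesenchyme mean to mesenchyme 1. That array gave more than 2 times the signal of every other array for 14 of the 98 genes (14.3%), against 7.50% of all genes. Within the dim range the shares were 17.5% of 80 genes and 13.1% of all genes. Cyp2a12 had 547 on mesenchyme 1 and at most 21.1 elsewhere, Cyp3a11 had 633 and at most 163, and Cyp2c38 had 679 and at most 189; these 3 were chosen after their values were seen. All are known as liver enzymes. The 8 measured hepatocyte markers summed to 785 on mesenchyme 1, 510.5 and 603 on the other mesenchyme arrays and 4324 to 7987 in urothelium. Most of the urothelial sums came from Ttr (2928, 7056 and 3225) and Afp (947, 415 and 636), and the other 6 markers did not pass. The sums are thus mainly a reading of these 2 genes. Of the 8 markers, 1 was over 2 times every other array on mesenchyme 1, the apolipoprotein gene Apoa2 (485 against at most 235). Alb, the albumin gene, had 146 there and 118 to 238 elsewhere. The liver regulators Hnf4a (472 against at most 204) and Nr1h4 (278 against at most 132) were also highest on mesenchyme 1. They were likewise chosen after their values were seen. Of the 18 measured sensors and transcription factors read below, 6 (33.3%) were highest on that array, against 31.6% of all genes. Another of them, Nr1i3, had 44.3 on mesenchyme 1 and 68.4 on mesenchyme 2. The part of hepatocyte RNA in these signals was not tested. Mesenchyme 1 and urothelium 5 also had the highest 3' to 5' ratios of beta-actin signal, 8.40 and 8.60, against 2.29 to 4.89 on the others. This ratio rises where amplified RNA lacks its 5' part. The same ratio of Gapdh was 26.3 on urothelium 5, 11.5 on mesenchyme 1 and 9.77 to 15.7 on the remaining arrays, so it set only urothelium 5 apart. The part of RNA quality was not tested. Without both arrays 13 of the 14 genes kept their call, Sult5a1 being the exception (-1.18), and the counts were 9 in urothelium and 5 in mesenchyme.

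The compartments could be told from their markers. All 10 epithelial markers were higher in urothelium, with summed signals of 9554 to 12780.4 on the mesenchyme arrays and 323606 to 338992 on the urothelium arrays. All 10 mesenchymal markers were higher in mesenchyme, with 238521 to 295691 and 9986 to 13875. Some markers of other cells moved with the compartments as well, though the summed red cell signals of the compartments overlapped. Higher in mesenchyme were 10 of 10 endothelial genes (24782 to 29368 against 1556 to 2404), 5 of 10 macrophage genes (10840.0 to 15285 against 1735 to 2123) and 4 of 8 measured red cell genes (70510.1 to 89034 against 57179.7 to 103973). Of 10 mesothelial genes 6 were higher in mesenchyme and 3 in urothelium (24138 to 53106 against 70511 to 100145). Of those 3, Upk1b is a uroplakin gene and Krt19 is also among the epithelial markers, and with 38698 and 32465 they made up most of the urothelial sum. Higher in urothelium were 3 of 10 intestinal genes (552 to 1071 against 1796 to 2670.0) and 2 of 8 measured hepatocyte genes, Ttr and Afp (510.5 to 785 against 4324 to 7987). No marker had a signal of 0. The part of these cells in the signals of Cyp1b1, Gstm5, Gstt1 and the other genes was not tested, and in bulk tissue fewer cells of a type cannot be told from less RNA per cell.

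The genes that control, supply and complete these reactions were read from 6 lists. Of 124 measured genes 18 were higher in urothelium, against 5.8% of all genes, and 17 in mesenchyme, against 8.91%. Together these were 28.2%, against 14.7% of all genes tested. Of the 124 genes 76 were brighter than the median gene, and 26 of the 76 passed, in a range where 20.5% of all genes did. The median difference of the 124 was 0.017. With arrays centred on their medians the split was 33 and 8, so that the urothelial share of calls went from 51.4% to 80.5%, and after quantile normalization it was 62.9%. Without mesenchyme 2 the count in mesenchyme was 10, without mesenchyme 4 it was 11 and without urothelium 7 it was 9.

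**Figure D4:**
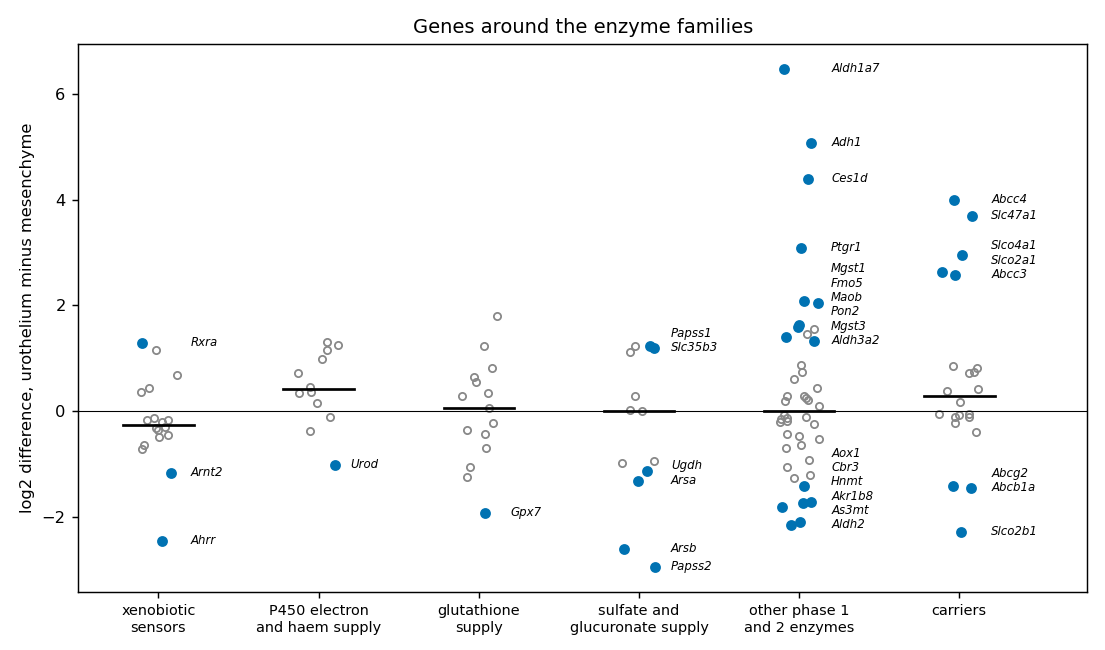
Log2 difference, urothelium minus mesenchyme (vertical axis), of the 124 measured genes in 6 lists around the enzyme families (horizontal axis); filled points passed and are named, open points did not, and black bars are list medians. Passing genes reach from -2.93 for Papss2 to 6.47 for Aldh1a7, and the electron and haem list has the highest median (0.41) with 1 gene past the test.

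Of 18 measured sensors and transcription factors 1 was higher in urothelium and 2 in mesenchyme (16.7% in all, against 14.7% of all genes, median -0.25). Ahr, the receptor of dioxins and polycyclic hydrocarbons, had 13949.8 ± 1141 in mesenchyme and 18054 ± 2912 in urothelium and did not pass (0.36, 95% interval -0.18 to 0.91). Ahrr, which encodes its repressor and is itself a target, had 351, 328 and 146 in mesenchyme and 4.48, 14.6 and 14.6 in urothelium. Its difference of -2.44 ± 0.39 (adjusted p = 0.00140) had the direction of Cyp1b1, and was -4.55 and -1.22 with pseudocounts of 1 and 179. The dim Cyp1a1 (-0.20) and Cyp1a2 (-0.28) did not pass. Whether the receptor acted on any of these genes was not tested. Arnt2, a partner protein of such receptors, differed by -1.15 ± 0.28 and lost its call without mesenchyme 2 (-1.22), mesenchyme 4 (-1.13) or urothelium 7 (-1.19), and with centred arrays (-0.77). Rxra, the partner of many nuclear receptors, was higher in urothelium (1.28 ± 0.33, adjusted p = 0.0248) and lost its call without mesenchyme 1 (1.10), mesenchyme 4 (1.37) or urothelium 8 (0.97). In the mean of their probe sets neither Arnt2 (-0.52) nor Rxra (0.68) passed. Nfe2l2, the regulator of the antioxidant response, had 2218, 5216 and 5011 against 10389.8, 6576 and 9618. The arrays did not overlap, and the difference of 1.16 ± 0.36 had an adjusted p of 0.0565. It passed with centred arrays (1.54), with a covariate for the actin ratio (1.19) and when only genes above the median signal were tested, and was 0.76 without mesenchyme 1, where it did not pass.

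Of 12 measured electron donors and haem enzymes 0 were higher in urothelium by limma's test and 1, Urod, in mesenchyme (8.33% in all, against 14.7% of all genes). Their median was 0.41. An unadjusted limma p under 0.05 was found for 5 of the 12, and for 4544 of all 18193 genes. Urod, a step of haem synthesis, differed by -1.003 ± 0.24 (adjusted p = 0.0160) and lost its call without mesenchyme 2 (-1.02), mesenchyme 4 (-1.01) or urothelium 7 (-1.09), and with centred arrays (-0.62). Por, the P450 reductase gene, is not analysed here. The count in urothelium was 1 without mesenchyme 4, urothelium 5 or urothelium 8, 3 with a covariate for the actin ratio, and 4 with centred arrays or with array weights.

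Of 15 measured genes of glutathione synthesis and recycling 0 were higher in urothelium and 1, Gpx7, in mesenchyme. This was 6.67% in all, against 14.7% of all genes, with a median of 0.061. An unadjusted limma p under 0.05 was found for 6 of the 15, and for 4544 of all 18193 genes. Gpx7, a peroxidase of the endoplasmic reticulum, had 3505, 4881 and 5035 against 684, 1082 and 1970.5 (-1.92 ± 0.38, adjusted p = 0.00578). Gclc, the catalytic subunit of the enzyme that limits glutathione synthesis, had 4417, 2141 and 2249 against 4986, 4880.3 and 3387, which overlapped (0.64 ± 0.34, adjusted p = 0.283). It passed without mesenchyme 1 (0.97), with array weights (0.99) and when its probe sets were averaged (0.85). The counts were 2 and 2 without mesenchyme 1; without urothelium 8 they were 1 and 2, with centred arrays 3 and 1, and with array weights 4 and 4.

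Of 13 measured genes that supply or reverse sulfation and glucuronidation 2 were higher in urothelium and 4 in mesenchyme. This was 46.2% in all, against 14.7% of all genes, with a median of 0.00092. The forms of the enzyme that makes active sulfate went opposite ways. Papss2 had 378, 1677 and 1145.5 in mesenchyme and 18.3, 107 and 156 in urothelium (-2.93 ± 0.61, adjusted p = 0.00747). Papss1, chosen after its value was seen, had 11384.5, 18091.5 and 18804 against 39957, 36722 and 34126 (1.23 ± 0.27, adjusted p = 0.0103). Papss2, higher in mesenchyme, thus had the direction of both sulfotransferase genes that passed. Most Sult genes had the other sign, with 9 of 13 differences towards urothelium (median 0.175). The lysosomal sulfatase genes Arsb (-2.61 ± 0.34) and Arsa (-1.31 ± 0.35) and Ugdh, whose enzyme makes UDP-glucuronic acid (-1.12 ± 0.26), were higher in mesenchyme as well. Slc35b3, a carrier of active sulfate into the Golgi, was higher in urothelium (1.20 ± 0.30) and was also chosen after its value was seen.

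Several of these calls rested on single arrays. Arsa lost its call without any 1 of mesenchyme 1 (-0.99), mesenchyme 2 (-1.45), urothelium 5 (-1.19), urothelium 7 (-1.36) or urothelium 8 (-1.37). Slc35b3 lost it without mesenchyme 2 (1.01), mesenchyme 4 (1.16), urothelium 5 (1.10) or urothelium 7 (1.11), and Ugdh (-1.09) and Papss1 (1.23) lost theirs without urothelium 7. Without that array the counts of this list were 0 in urothelium and 2 in mesenchyme, and without mesenchyme 2, mesenchyme 4 or urothelium 5 the count in urothelium was 1. With centred arrays Ugdh (-0.74) and Arsa (-0.92) were not past the test, nor was Arsa without both mesenchyme 1 and urothelium 5 (-0.87). In the mean of its probe sets Papss2 was not past it either (-1.16), while Arsb was (-1.33).

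Of 44 measured enzymes of other families 10 were higher in urothelium and 6 in mesenchyme (36.4% in all, against 14.7% of all genes, median 0.014). The largest differences were towards urothelium. Aldh1a7, an aldehyde dehydrogenase gene, had 174, 184 and 323 in mesenchyme and 18429, 27990.5 and 24637 in urothelium (6.47 ± 0.32, adjusted p = 1.34e-06). Adh1, the class I alcohol dehydrogenase gene, had 289.9, 296 and 1263 against 11148, 23255 and 21604 (5.07 ± 0.51, adjusted p = 6.11e-05). Ces1d, a carboxylesterase gene, had 4.64, 23.0 and 25.2 against 875, 871 and 2527 (4.39 ± 0.50, adjusted p = 0.000126; 2.88 with a pseudocount of 179). For these 3 genes every urothelium array was far above every mesenchyme array. Nqo1, a quinone reductase and a common readout of the antioxidant response, had 1665, 1384 and 1499 against 2393, 2864.5 and 2438, without overlap, and did not pass (0.74 ± 0.28, adjusted p = 0.115). It passed with array weights (0.89) and with centred arrays (1.12). Without mesenchyme 2, mesenchyme 4 or urothelium 7 the count in mesenchyme was 3.

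Of 22 measured carriers 5 were higher in urothelium and 3 in mesenchyme (36.4% in all, against 14.7% of all genes, median 0.28). Abcc4, an exporter of conjugates and cyclic nucleotides, had 512, 684 and 786 in mesenchyme and 11765, 12605 and 9049 in urothelium (3.99 ± 0.29, adjusted p = 7.52e-06). Slc47a1, which exports organic cations, had 8.75, 105 and 148 against 1245, 1435 and 1704 (3.69 ± 0.52, adjusted p = 0.000559), and Slco4a1 differed by 2.95 ± 0.48. The other genes higher in urothelium, chosen after their values were seen, were Slco2a1 (2.64 ± 0.30), a prostaglandin carrier, and Abcc3 (2.57 ± 0.45), an exporter of glucuronides. Those higher in mesenchyme, likewise chosen, were Slco2b1 (-2.28 ± 0.39), Abcb1a (-1.45 ± 0.42) and Abcg2 (-1.42 ± 0.27), of which the last 2 encode drug exporters. Abcb1a lost its call whichever array was left out, with values between -1.69 and -1.20, and both Abcb1a (-1.07) and Abcg2 (-1.03) lost it with centred arrays. Abcb1a also lost it with a pseudocount of 1 (-1.96) and after quantile normalization (-1.21). The count in mesenchyme was 2 whichever array was left out. Slco2a1 was not past the test in the mean of its probe sets (0.98). Slco4a1 was 1.94 in that mean and did not pass on its probe set without a shared-match suffix (0.93). With a pseudocount of 179 Slco2b1 was -1.50 and Abcb1a -0.86, both past the test.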

How the data were processed

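Per the submitters' processing notes the software was GCOS, without algorithm or settings. The deposited file holds 1 linear array intensity per sample for 45101 probe sets. Their 2% trimmed mean was 1500.01 on every array, so no further scaling was applied; such scaling hides differences in total RNA. Median signals ran from 132 to 239.7 and signals from 0.09 to 156866. No detection calls were used, so a dim gene is not said to be absent.

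Probe sets were named through the platform annotation: 64 were controls, 34945 had a single symbol, 932 had several and 9160 had none, and only the single ones were used. Each of 18193 genes took the probe set with the highest mean of log2(signal + 45); the 45 is the lower quartile of all signals. The 98 genes had 121 probe sets, 19 genes having more than 1, and 0 genes had probe sets past the test in opposite directions. A further 9 probe sets with several symbols were left out. RefSeq matched all 98 genes by Entrez identifier.

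All 6 arrays entered 1 fit of the compartment difference for every gene, by lmFit and trended eBayes of limma 3.58.1 under R 4.3.3, with Benjamini-Hochberg adjustment over 18193 genes. Standard errors are moderated, and the number of arrays limits precision.

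The genes and lists were chosen with earlier results of these data known. Named with values were every gene past the test, the 3 of each family with the highest mean signal among the others, and in each list up to 3 past the test with the largest differences, or the brightest 2 if fewer than 2 passed. Ahr, Nfe2l2, Nqo1, Ugdh, Papss2 and Gclc were named in any case. Where fewer than 2 passed, Pgrmc1 (log2 difference 0.34), Gpx1 (0.061) and Txnrd1 (0.55) were read by this rule and did not pass. Alternatives were pseudocounts of 1 and 179, other normalizations, filters, probe set choices and covariates, array weights, a 2-fold threshold and leaving out arrays.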

Additional observations from a re-analysis of the deposited data

How the results depend on the processing

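No paired analysis was possible because the replicate numbers of mesenchyme and urothelium do not overlap. Over 19 alternatives, Cyp1b1, Gsta2 and Gstt3 kept their call in every one that measured them, and none of the 14 genes past the test changed direction. Gsta2 was measured in 17 of the 19. The probe sets used for 4 of the 14 genes, Cyp4v3, Gsta2, Sult1a1 and Ugt2b34, bear a suffix for shared probes. Counts of the 98 genes, 8 in urothelium and 6 in mesenchyme, were 2 and 1 with the 2-fold threshold, 13 and 10 with array weights and 5 and 3 among genes brighter than the median. Leaving out 1 array gave 4 to 8 and 4 to 6. Over all 18193 genes the counts, 1055 and 1621, were 392 and 647 with the 2-fold threshold and 2055 and 2996 with array weights. Among 9096 genes brighter than the median, 17 of them enzyme genes, they were 800 and 998. This filter ranked genes by their mean of log2(signal + 45), whereas the mean signal used further above put 18 enzyme genes over the median. Leaving out 1 array gave 660 to 1059 and 1138 to 1678 over all genes. Counts of the list genes, 18 and 17, were 9 and 3 with the 2-fold threshold and 33 and 8 with centred arrays. Array weights gave 34 in urothelium, the median filter 11 in mesenchyme, and leaving out 1 array 13 to 20 and 9 to 15. Array weights gave mesenchyme 1 the lowest weight (0.27) and all 14 genes passed with them.

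Over 60 named genes, 973 of 1109 values kept direction and side of the threshold, 91 lost the call, 22 gained it and 23 changed sign; the cause was not tested. All sign changes were of genes not past the test. With array weights the values were 0.021 for Cyp2c38, 0.30 for Ugt2b1, -0.066 for Ugt2b35 and 0.23 for Ugt2b36. With centred arrays they were 0.0082 for Cyp2j6, 0.12 for Gstp1, 0.13 for Gstz1, 0.28 for Ugt2b1 and 0.26 for Ugt2b36, and after quantile normalization 0.13 for Ugt2b1 and 0.16 for Ugt2b36. A pseudocount of 1 gave 0.14 for Ugt2b1. Without mesenchyme 1 and urothelium 5 they were 0.11 for Cyp2c38, 0.071 for Cyp2j6, 0.22 for Ugt2b1 and 0.22 for Ugt2b36. Leaving out 1 array gave -0.86 to 0.17 for Cyp2c38, -0.062 to 0.24 for Gpx1, -0.51 to 0.061 for Gstz1, -0.50 to 0.47 for Ugt2b1 and -0.42 to 0.16 for Ugt2b36. Dim signals, unknown signal settings and 3 arrays a group limit what could be resolved.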
